A study of Mus musculus with 36 samples.

Results

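The genes described here encode 10 proteins of the myeloid cell surface. Trem1, Trem2 and Trem3 encode triggering receptors expressed on myeloid cells (TREM). Tyrobp and Hcst encode the adaptors DAP12 and DAP10 through which such receptors signal. Sirpa, Pirb, Lilrb4a, Cd300lf and Cd33 are grouped here as genes of inhibitory receptors. They were taken by name from the tables of read counts and of log2 normalized counts and are 10 of the 40354 genes counted. Of these, 9 had enough reads to be tested, and the row named Lilrb4a held at most 1 read in any library. Values are CPM, the reads of a gene scaled to the size of its library, and differences are log2 fold changes from edgeR. A gene passed the test, and is said to have risen or fallen, when it differed by at least 1.5-fold with an adjusted p of at most 0.05 over all genes tested.

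TREM receptors have short tails without signalling motifs. They associate with DAP12, a small transmembrane adaptor whose tail carries an immunoreceptor tyrosine-based activation motif (ITAM), and engagement of the receptor recruits the kinase Syk to that motif. DAP10 carries a different tyrosine motif that engages phosphoinositide 3-kinase and is best known as the partner of the lymphocyte receptor NKG2D. Inhibitory receptors typically carry immunoreceptor tyrosine-based inhibitory motifs (ITIMs), which recruit the tyrosine phosphatases SHP1 and SHP2 and restrain ITAM signals. Whether each mouse member grouped as inhibitory, Cd33 among them, carries such a motif was not examined here. Macrophages carry activating and inhibitory receptors side by side.

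The cells were B cells from the bone marrow of C57BL/6J mice, infected with a retrovirus for the transcription factor C/EBPα fused to the hormone-binding domain of the estrogen receptor and for the surface marker human CD4, enriched for that marker and grown on a feeder layer of inactivated embryonic fibroblasts. Adding 17β-estradiol (E2) starts their conversion into macrophage-like cells, called BMT. The groups carried wild-type C/EBPα (WT) or a form whose arginine at residue R35 was replaced by alanine (R35A) or by lysine (R35K), each at 0, 1, 3, 6, 18 and 120 h post induction (hpi), with 2 libraries in each of 18 groups and 36 in all. The time course asks how early each form of the factor turns on macrophage genes. All groups shared the retroviral vector and the feeders. The medium at induction held the cytokines IL-7, IL-3, FLT-3, CSF-1 and SCF and was later renewed without IL-7, so cells at 120 hpi also differed in medium from those at earlier times. No library of E2-treated cells without C/EBPα was analysed here, and an effect of E2, medium, handling or time in culture on these genes cannot be told apart from that of the factor. The R35K libraries were deposited in tables of their own, so that the table and the construct cannot be told apart either. Labels number the libraries of a group but do not tie them to animals or cultures, and the p-values measure only the spread between these libraries.

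Libraries held 13044456 to 23131776 counted reads. As sums, B cell and macrophage markers followed the labels. The summed level of 10 B cell markers lay between 3822 and 4129 CPM in the 3 groups at 0 hpi and between 185 and 308 CPM at 120 hpi, while that of 10 macrophage markers went from between 83.4 and 88.6 to between 21417 and 31594 CPM. Of the B cell markers, Il7r did not fall from 0 to 120 hpi. It went from 52.7 to 114.6 CPM in WT, from 51.3 to 53.6 in R35A and from 51.8 to 77.5 in R35K cells. The other B cell markers were lower at 120 than at 0 hpi in each construct. At 1 hpi the macrophage sum was 879 CPM in WT, 3775 in R35A and 8085 in R35K cells. These are bulk libraries, in which fewer cells of a type and less RNA per cell cannot be told apart. The 10 fibroblast markers, which feeder cells would bring, summed in WT cells to 6818 CPM at 0 hpi and to 16891 CPM at 18 hpi. At 120 hpi they summed to 9929 CPM, of which Fn1 held 9760. Each of the other fibroblast markers was then below its WT level at 0 hpi, Sparc for example at 40.9 against 977 CPM. The feeders' part in the results was not tested. Of the granulocyte list, Ly6g held at most 3 reads in any library, and nearly all of its sum of 2189 to 2679 CPM at 120 hpi was Mmp8. NK and T cell markers, relevant for Hcst, summed to at most 4.54 CPM in any group, with Ncr1 at or below 3 reads throughout.

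Several members lie beside each other in the genome (coordinates are GRCm38/mm10, GENCODE vM21). Trem1 (chr17:48232768-48246924, plus strand), Trem3 (chr17:48247777-48258841, plus) and Trem2 (chr17:48346401-48354147, plus) form a cluster in which Trem1 and Trem3 are 852 bases apart and Trem3 and Trem2 87559 bases apart. Tyrobp (chr7:30413760-30417585, plus) and Hcst (chr7:30417712-30419854, minus) converge on each other with 126 bases between their annotated ends. Sirpa is at chr2:129592835-129632228 (plus), Pirb at chr7:3711409-3720391 (minus), Cd33 at chr7:43524216-43544428 (minus) and Cd300lf at chr11:115116214-115133992 (minus). These 9 genes are annotated as protein-coding, and their exons overlap those of no other annotated gene. Pirb belongs to a family with near-identical activating copies (Pira), so reads can be split among them, and its values are less certain than the others.

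The sequences before the gene starts are shown because C/EBPα, the induced factor, is known to act with the factor PU.1, and because neighbouring members differed in their response. RefSeq sequences (GRCm38.p6) were at hand for 6 of the 10 members, Trem1, Trem2, Hcst, Pirb, Cd300lf and Cd33. Each was searched on both strands, from 250 bases before to 50 bases after the start, for AGGAAGT, the core of PU.1 sites, and for TTGCNNAA, a pattern that includes the C/EBP consensus palindrome and leaves 2 of its bases free. Examples, each the 250 bases before the start and 5′ to 3′ on the gene's own strand, read as below, and capitals mark AGGAAGT or its complement ACTTCCT.

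Trem1, chr17:48232489-48232738, plus strand: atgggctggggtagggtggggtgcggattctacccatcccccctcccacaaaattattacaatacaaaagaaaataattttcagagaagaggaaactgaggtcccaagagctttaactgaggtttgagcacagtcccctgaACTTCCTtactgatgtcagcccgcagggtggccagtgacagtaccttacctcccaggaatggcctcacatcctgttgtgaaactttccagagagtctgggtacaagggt

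Trem2, chr17:48346151-48346400, plus strand: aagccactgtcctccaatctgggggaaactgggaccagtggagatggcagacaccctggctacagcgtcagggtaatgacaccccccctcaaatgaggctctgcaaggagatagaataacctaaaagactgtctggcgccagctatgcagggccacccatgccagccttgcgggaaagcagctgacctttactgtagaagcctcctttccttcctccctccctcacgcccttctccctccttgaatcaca

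Hcst, chr7:30419855-30420104, minus strand: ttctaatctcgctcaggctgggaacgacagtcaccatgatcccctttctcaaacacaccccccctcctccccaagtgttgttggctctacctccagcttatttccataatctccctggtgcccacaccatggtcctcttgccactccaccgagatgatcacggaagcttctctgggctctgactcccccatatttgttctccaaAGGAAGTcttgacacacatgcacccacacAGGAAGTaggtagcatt

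Pirb, chr7:3720383-3720632, minus strand: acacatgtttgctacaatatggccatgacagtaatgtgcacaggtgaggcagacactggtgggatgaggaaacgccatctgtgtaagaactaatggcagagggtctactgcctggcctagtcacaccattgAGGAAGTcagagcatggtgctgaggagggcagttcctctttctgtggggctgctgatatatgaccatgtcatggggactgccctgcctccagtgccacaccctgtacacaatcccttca

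AGGAAGT occurred in Trem1 (on the minus strand, 109 to 103 bases before the start), in Pirb (119 to 113 before), in Cd300lf (bases 1 to 7 after) and at 2 places in Hcst (46 to 40 and 17 to 11 before). TTGCNNAA occurred in Trem2 alone among the 6, as TTGCTCAA at bases 22 to 29 after the start, outside the stretch shown. The stretch searched for Cd33 held neither. Its 250 bases before the RefSeq start were chr7:43533172-43533421, which lie inside the annotated span of Cd33 given above. The annotated start of Cd33 was therefore not searched. Among 32851 promoters of the same length, 9.351% held AGGAAGT, 10.8% held TTGCNNAA and 1.047% held both. These are matches of letters and no measure of binding, and no relation to the response was tested.

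Levels of different genes were compared per kilobase of annotated exon (CPM per kb, means of 2 libraries). Before induction, Trem1 and Tyrobp led in all 3 constructs, with 4.69 and 4.56 CPM per kb in WT cells, where their replicates overlapped. Sirpa followed at 3.55 and Hcst at 1.55 CPM per kb, and the remaining members lay between 0.175 (Trem2) and 0.349 (Trem3). At 120 hpi in WT cells the order was Tyrobp (2519.5 CPM per kb), Sirpa (509.8), Cd33 (158), Pirb (129.8), Trem2 (85.8), Cd300lf (81.3), Trem1 (76.5), Hcst (12.1) and Trem3 (10.5), and the replicates of each neighbouring pair in that order were separate. The adaptor DAP12 stood above every receptor that pairs with it among the members, and DAP10, its genomic neighbour, near the bottom. Over the 18 groups, 19 of 144 neighbouring pairs in the order had overlapping replicates, 10 of them at 0 hpi.

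**Figure D1:**
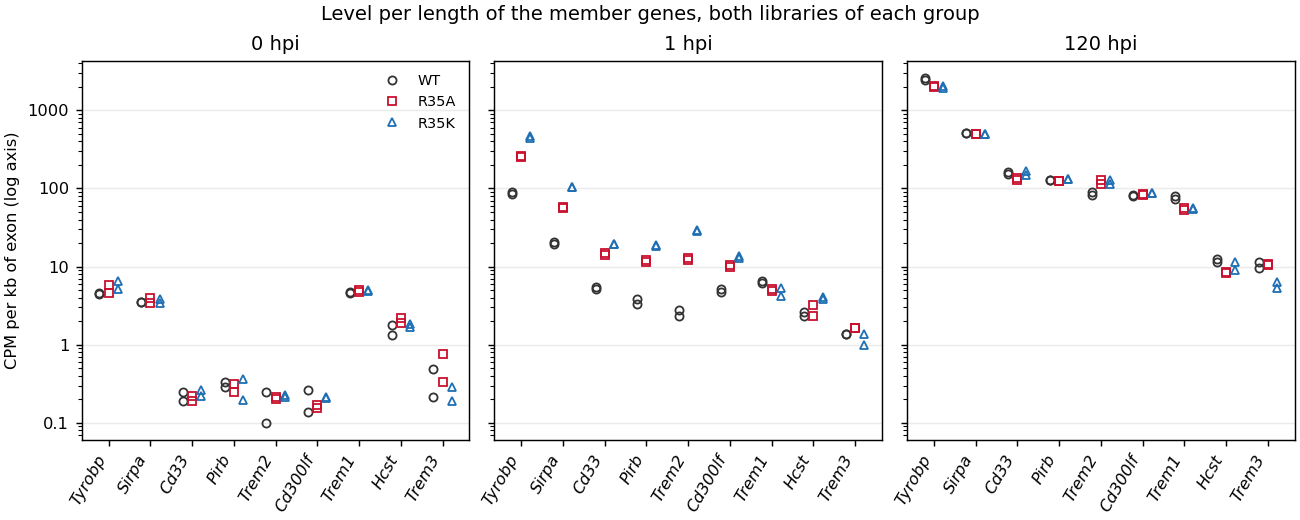
Level per kilobase of exon (CPM per kb, log axis) of the 9 members with reads at 0, 1 and 120 hpi, with a symbol for each of the 2 libraries per construct and members ordered by their WT level at 120 hpi. Tyrobp reached 2519.5 and Trem3 10.5 CPM per kb in WT cells at 120 hpi, while at 0 hpi Trem1 and Tyrobp lead.

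Most members rose within 1 h of induction in all 3 constructs. In WT cells 7 of the 9 members tested were higher than at 0 hpi at each of 1, 3, 6 and 18 hpi, and 9 of 9 at 120 hpi. Over all genes tested in WT cells, 10.7%, 12%, 15.1%, 23.9% and 23.1% were called higher at these times. The 7 were Trem2, Trem3, Tyrobp, Sirpa, Pirb, Cd300lf and Cd33. Trem1 and Hcst were the pair that did not rise early, and Trem1 fell at 18 hpi, when 23.2% of all genes were called lower. R35A cells showed the same 7 higher at 1, 3 and 6 hpi, 8 (with Hcst) at 18 hpi and 9 at 120 hpi, against 18.3%, 17.9%, 18.5%, 21% and 24.2% of all genes. R35K cells had 8 higher (with Hcst) at each time up to 18 hpi and 9 at 120 hpi, against 15.5%, 15.9%, 16.3%, 18.4% and 25.4% of all genes.

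The size of the early rise differed between constructs. Over the 9 members the median log2 fold change from 0 hpi was 3.54 in WT, 5.37 in R35A and 5.93 in R35K cells at 1 hpi, and 3.73, 5.84 and 5.68 at 18 hpi. By 120 hpi the medians were 8.5, 8.46 and 8.31. The median over all genes tested was within 0.1 of 0 up to 18 hpi and -0.36, -0.31 and -0.28 at 120 hpi. From 18 to 120 hpi all 9 members rose in each construct, when 27.5% of all genes in WT, 24.5% in R35A and 24.7% in R35K cells were called higher.

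**Figure D2:**
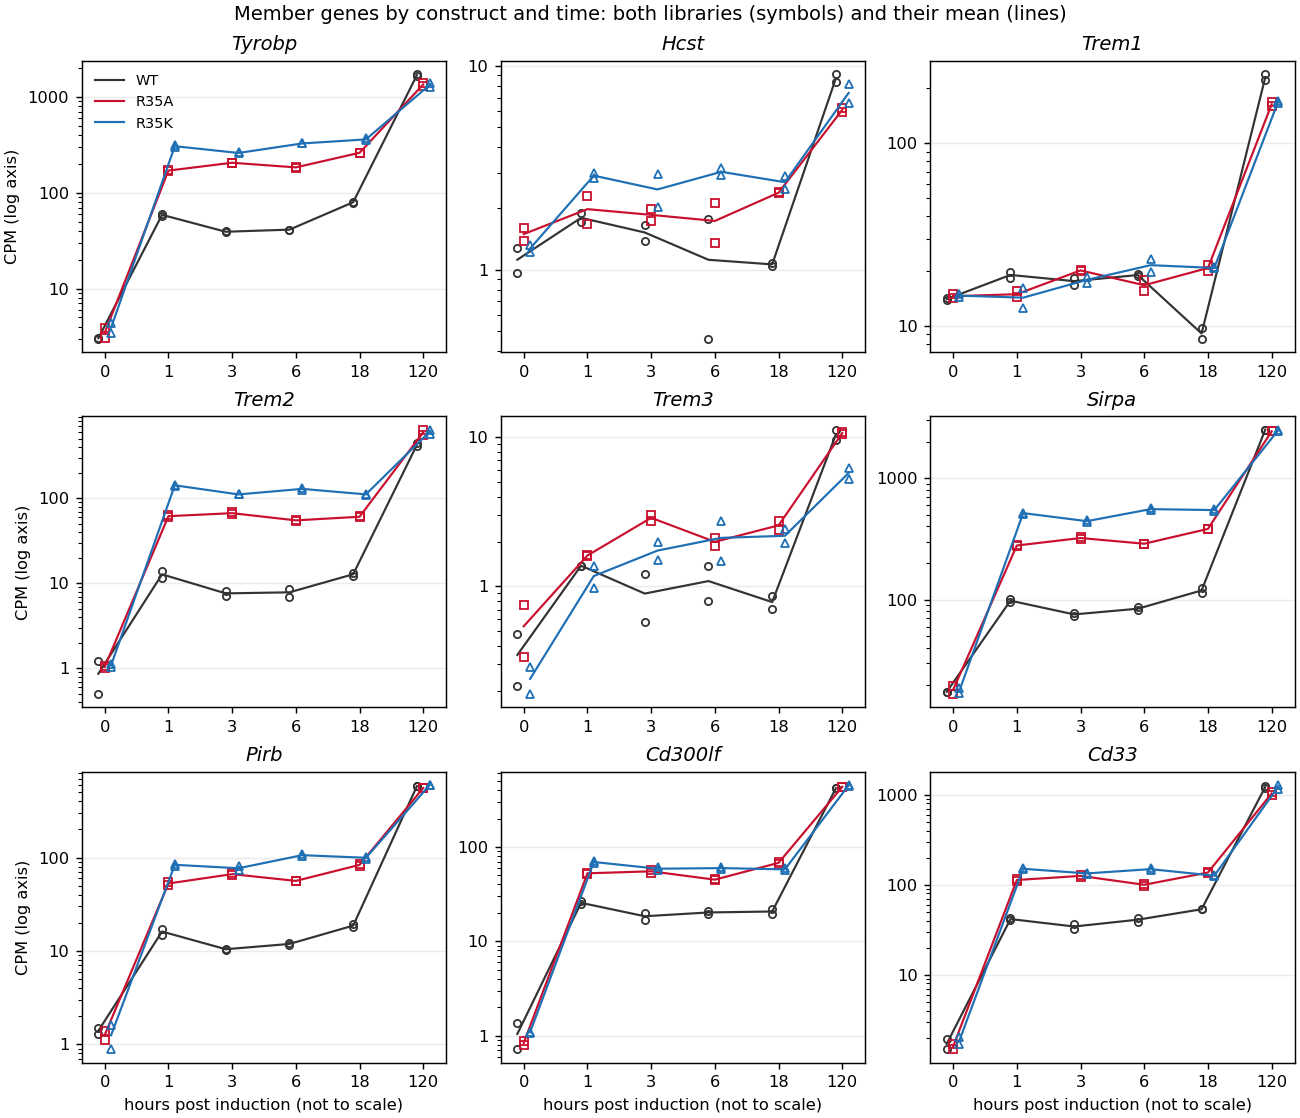
Level (CPM, log scale) of each member against time after induction, with a point for each of the 2 libraries per group and a line through their means, for WT, R35A and R35K cells. The mutant lines lie above the WT line from 1 to 18 hpi for Tyrobp, Trem2, Sirpa, Pirb, Cd300lf and Cd33, and the 3 lines meet near each other at 0 and 120 hpi.

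Tyrobp, which encodes the adaptor DAP12, rose within 1 h in all constructs and most in the mutants. Tyrobp in WT cells stood at 3.09 and 2.99 CPM before induction, 60.2 and 57.3 after 1 h, 38.6 and 39.8 after 3 h, 41.2 and 41.2 after 6 h, 80.6 and 78.6 after 18 h and 1716 and 1645 after 120 h. Its R35A libraries held 3.02 and 3.89 CPM before induction, 172 and 168 after 1 h, 206 and 204 after 3 h, 184 and 183 after 6 h, 259 and 262 after 18 h and 1385 and 1311 after 120 h. Its R35K libraries held 3.48 and 4.35 CPM before induction, 313 and 298 after 1 h, 256 and 263 after 3 h, 326 and 327 after 6 h, 369 and 351 after 18 h and 1387 and 1274 after 120 h. Each mutant library from 1 to 18 hpi lay above both WT libraries of the same time, and the R35A libraries at 1 hpi already lay above the WT libraries at 18 hpi. From 0 to 1 hpi the log2 fold change was 4.29 ± 0.08 (SE, adjusted p = 8.1e-41) in WT, 5.58 ± 0.07 (SE, adjusted p = 2.2e-50) in R35A and 6.24 ± 0.07 (SE, adjusted p = 2.3e-37) in R35K cells. At 1 hpi Tyrobp had reached 3.5%, 12.6% and 23% of its own level at 120 hpi in the 3 constructs. At 120 hpi the WT libraries were the higher ones, with an R35A difference of -0.31 ± 0.03 (SE, adjusted p = 4.6e-11), under the 1.5-fold threshold.

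Hcst, which encodes DAP10 and lies next to Tyrobp, was expressed at a low level in all constructs. Hcst in WT cells stood at 0.960 and 1.28 CPM before induction, 1.71 and 1.89 after 1 h, 1.66 and 1.39 after 3 h, 0.458 and 1.78 after 6 h, 1.08 and 1.04 after 18 h and 9.11 and 8.31 after 120 h. Hcst in R35A cells stood at 1.61 and 1.38 CPM before induction, 1.67 and 2.3 after 1 h, 1.74 and 1.98 after 3 h, 2.13 and 1.35 after 6 h, 2.37 and 2.4 after 18 h and 5.97 and 6.22 after 120 h. Hcst in R35K cells stood at 1.22 and 1.32 CPM before induction, 2.82 and 2.98 after 1 h, 2.94 and 2.02 after 3 h, 2.91 and 3.14 after 6 h, 2.89 and 2.49 after 18 h and 8.18 and 6.58 after 120 h. The WT libraries at 6 hpi, with 7 and 29 reads, differed most from each other. In R35K cells Hcst rose by 1 hpi, with a log2 fold change of 1.14 ± 0.26 (SE, adjusted p = 3.1e-04), against 0.39 ± 0.29 (SE, adjusted p = 0.24) in R35A and 0.71 ± 0.34 (SE, adjusted p = 0.077) in WT cells. Tests of the difference itself at 1 hpi called Hcst neither between R35K and WT nor between R35K and R35A cells. Its rise in R35A cells at 18 hpi, 0.67 ± 0.28 (SE, adjusted p = 0.033), did not pass without any 1 of the 4 libraries in that comparison (log2 0.55 to 0.77). Its rise in R35K cells at 3 hpi, 0.87 ± 0.26 (SE, adjusted p = 0.0043), was 0.63 (adjusted p = 0.07) without R35K replicate 1 of that time. At 120 hpi all constructs had risen, by 2.83 ± 0.26, 1.91 ± 0.25 and 2.43 ± 0.22 (SE). Klrk1, which encodes the DAP10 partner NKG2D, reached 3.4 CPM at most, in WT cells at 120 hpi.

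Trem2, the lipid-sensing TREM receptor of tissue macrophages and microglia, had the largest difference between R35A and WT cells of all members at 1 hpi. Trem2 in WT cells stood at 1.23 and 0.499 CPM before induction, 13.9 and 11.7 after 1 h, 7.2 and 8.06 after 3 h, 8.7 and 7.0 after 6 h, 13.3 and 12.3 after 18 h and 442 and 407 after 120 h. Trem2 in R35A cells stood at 1.07 and 1.01 CPM before induction, 60.5 and 62.8 after 1 h, 65.4 and 68.4 after 3 h, 55.6 and 54.5 after 6 h, 61.6 and 59.9 after 18 h and 632 and 562 after 120 h. Trem2 in R35K cells stood at 1.04 and 1.14 CPM before induction, 140.4 and 144 after 1 h, 111 and 111 after 3 h, 132 and 126 after 6 h, 113 and 109 after 18 h and 642 and 572 after 120 h. The order WT, R35A, R35K held without overlap at 1, 3, 6 and 18 hpi. At 1 hpi R35A cells stood 4.71-fold above WT cells, a log2 difference of 2.24 ± 0.08 (SE, adjusted p = 1.5e-29), and at 18 hpi 4.7-fold. WT cells at 1 hpi had 3.01% of their level at 120 hpi, R35A cells 10.3% and R35K cells 23.4%. The WT level then fell, with a log2 change of -0.76 ± 0.12 (SE, adjusted p = 6.9e-06) from 1 to 3 hpi, and its libraries at 18 hpi lay within the range of those at 1 hpi. At 120 hpi R35A cells were 0.50 ± 0.04 (SE, adjusted p = 2.9e-14) above WT cells on the log2 scale, short of 1.5-fold. Trem2 rested on 18 and 7 reads in the WT libraries at 0 hpi.

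Trem1, which amplifies inflammatory responses in neutrophils and monocytes, behaved unlike Trem2 although it lies in the same cluster. Trem1 in WT cells stood at 14.3 and 13.8 CPM before induction, 19.8 and 18.22 after 1 h, 16.8 and 18.4 after 3 h, 18.8 and 19.2 after 6 h, 9.7 and 8.51 after 18 h and 220.3 and 238 after 120 h. Trem1 in R35A cells stood at 15 and 14.2 CPM before induction, 15.5 and 14.4 after 1 h, 20.2 and 20.1 after 3 h, 15.6 and 17.8 after 6 h, 20 and 21.6 after 18 h and 159 and 167 after 120 h. Trem1 in R35K cells stood at 14.4 and 14.9 CPM before induction, 16.1 and 12.5 after 1 h, 18.6 and 17.1 after 3 h, 19.8 and 23.2 after 6 h, 20.9 and 20.7 after 18 h and 165 and 171 after 120 h. It was already among the highest members before induction, and no construct passed the test for a rise up to 18 hpi. From 0 to 1 hpi its log2 change was 0.46 ± 0.09 in WT, 0.02 ± 0.09 in R35A and -0.09 ± 0.10 in R35K cells (SE). WT libraries at 18 hpi lay below both at 0 hpi, a fall of -0.63 ± 0.11 (SE, adjusted p = 8.6e-07), which shrank to -0.52 with DESeq2 and to -0.53 without WT replicate 2 of 18 hpi, under the fold threshold. At that time R35A cells stood 1.19 ± 0.10 (SE, adjusted p = 3.8e-15) above WT cells. The 10 fibroblast markers then summed to 16891 CPM in WT and 12115 CPM in R35A cells, and their part in this difference was not tested. By 120 hpi Trem1 had risen 14.9-fold in WT, 10.3-fold in R35A and 10.7-fold in R35K cells, and the R35A libraries differed from the WT ones by -0.48 ± 0.05 (SE, adjusted p = 9.2e-12), again short of 1.5-fold.

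Trem3, an activating receptor gene between Trem1 and Trem2, was with Hcst the lowest of the members that could be tested at 120 hpi. Trem3 in WT cells stood at 0.480 and 0.214 CPM before induction, 1.38 and 1.38 after 1 h, 1.21 and 0.580 after 3 h, 1.37 and 0.799 after 6 h, 0.702 and 0.868 after 18 h and 9.64 and 11.3 after 120 h. Trem3 in R35A cells stood at 0.335 and 0.745 CPM before induction, 1.62 and 1.61 after 1 h, 2.77 and 3.01 after 3 h, 2.13 and 1.86 after 6 h, 2.37 and 2.76 after 18 h and 10.8 and 10.5 after 120 h. Trem3 in R35K cells stood at 0.290 and 0.189 CPM before induction, 0.983 and 1.36 after 1 h, 1.5 and 1.98 after 3 h, 1.49 and 2.75 after 6 h, 1.95 and 2.42 after 18 h and 6.26 and 5.28 after 120 h. Each construct rose by 1 hpi, with log2 fold changes of 1.98 ± 0.44, 1.48 ± 0.36 and 2.20 ± 0.52 (SE) in WT, R35A and R35K cells. With 7 and 3 reads in the WT libraries at 0 hpi, the WT rises at 3, 6 and 18 hpi did not pass without WT replicate 2 of 0 hpi (log2 0.86, 1.13 and 0.70), nor without WT replicate 1 of 3 hpi (0.72), replicate 1 of 6 hpi (1.16) or replicate 2 of 18 hpi (0.99) at the respective time. R35A cells were above WT cells at 3, 6 and 18 hpi, by 1.68 ± 0.29 (SE, adjusted p = 3.1e-06), 0.87 ± 0.29 (SE, adjusted p = 0.014) and 1.69 ± 0.30 (SE, adjusted p = 7.5e-06). The difference at 6 hpi was 0.53 (adjusted p = 0.27) without WT replicate 2 and 0.79 (adjusted p = 0.076) without R35A replicate 1 of that time.

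Sirpa encodes the receptor for CD47 through which macrophages restrain phagocytosis. Sirpa in WT cells stood at 17.5 and 17.4 CPM before induction, 100.5 and 95.6 after 1 h, 73.6 and 77.6 after 3 h, 82.1 and 86.3 after 6 h, 125 and 113 after 18 h and 2500.2 and 2507 after 120 h. Sirpa in R35A cells stood at 19.5 and 16.7 CPM before induction, 277 and 281 after 1 h, 314 and 329 after 3 h, 289 and 288 after 6 h, 382 and 382 after 18 h and 2422 and 2428 after 120 h. Sirpa in R35K cells stood at 16.9 and 18.8 CPM before induction, 521 and 509.9 after 1 h, 433 and 451 after 3 h, 563 and 549 after 6 h, 557 and 534 after 18 h and 2467 and 2465 after 120 h. The constructs overlapped at 0 hpi, ran in the order WT, R35A, R35K without overlap from 1 to 18 hpi, and came close together at 120 hpi. Sirpa rose from 0 to 1 hpi by 2.51 ± 0.06 (SE, adjusted p = 1.5e-37) in WT, 3.93 ± 0.05 (SE, adjusted p = 1.4e-48) in R35A and 4.80 ± 0.05 (SE, adjusted p = 1.1e-38) in R35K cells. It started from a higher level than the other inhibitory receptors, and its fold change to 120 hpi was 131 in WT, 124 in R35A and 129 in R35K cells.

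Pirb encodes paired immunoglobulin-like receptor B, an inhibitory receptor for MHC class I. Pirb in WT cells stood at 1.3 and 1.5 CPM before induction, 17.4 and 14.9 after 1 h, 10.6 and 10.3 after 3 h, 11.5 and 12.3 after 6 h, 19.3 and 18.06 after 18 h and 581 and 579 after 120 h. Pirb in R35A cells stood at 1.41 and 1.12 CPM before induction, 51.3 and 54.3 after 1 h, 64.7 and 68.4 after 3 h, 56.8 and 55.8 after 6 h, 82.2 and 84.8 after 18 h and 555 and 557 after 120 h. Pirb in R35K cells stood at 1.62 and 0.883 CPM before induction, 85.6 and 81.7 after 1 h, 80.4 and 73.3 after 3 h, 104 and 108 after 6 h, 101 and 97.5 after 18 h and 599 and 594 after 120 h. Both mutants lay above WT at each time from 1 to 18 hpi. R35A cells exceeded WT cells by 1.67 ± 0.06 (SE, adjusted p = 1.3e-28) at 1 hpi and by 2.24 ± 0.07 (SE, adjusted p = 6.3e-33) at 6 hpi, while at 120 hpi the difference was -0.05 ± 0.03 (SE, adjusted p = 0.22).

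Cd33 and Cd300lf ran nearly in parallel. Cd33 encodes a sialic acid-binding lectin of the Siglec family. Cd33 in WT cells stood at 1.92 and 1.5 CPM before induction, 42.7 and 40.4 after 1 h, 36.3 and 32.4 after 3 h, 38.9 and 42.9 after 6 h, 53.3 and 53.5 after 18 h and 1182 and 1267 after 120 h. Cd33 in R35A cells stood at 1.48 and 1.7 CPM before induction, 116 and 109.6 after 1 h, 129 and 122 after 3 h, 102 and 97.9 after 6 h, 137 and 136 after 18 h and 1001 and 1068 after 120 h. Cd33 in R35K cells stood at 2.03 and 1.7 CPM before induction, 149 and 152 after 1 h, 136 and 131 after 3 h, 147 and 152 after 6 h, 124 and 128 after 18 h and 1150.0 and 1286 after 120 h. Its libraries at 1 hpi already stood 24.5-fold above 0 hpi in WT, 69-fold in R35A and 77.1-fold in R35K cells. At 1 hpi R35A exceeded WT cells by 1.40 ± 0.05 (SE, adjusted p = 3.8e-28).

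Cd300lf encodes an inhibitory receptor for phospholipids exposed on dying cells. Cd300lf in WT cells stood at 1.37 and 0.712 CPM before induction, 26.5 and 24.5 after 1 h, 20 and 16.9 after 3 h, 19.4 and 20.9 after 6 h, 19.5 and 21.8 after 18 h and 420.0 and 417 after 120 h. Cd300lf in R35A cells stood at 0.872 and 0.799 CPM before induction, 53.5 and 51.5 after 1 h, 53.3 and 56.9 after 3 h, 45.8 and 44.1 after 6 h, 69 and 66.5 after 18 h and 436 and 431 after 120 h. Cd300lf in R35K cells stood at 1.1 and 1.07 CPM before induction, 67.3 and 71.1 after 1 h, 56.8 and 60.6 after 3 h, 58.7 and 60.6 after 6 h, 59.2 and 56.4 after 18 h and 445 and 454 after 120 h. Mutant libraries lay above WT libraries from 1 to 18 hpi. The R35K libraries lay above the R35A ones at 1 and 6 hpi, overlapped with them at 3 hpi and lay below them at 18 hpi. The direct difference of R35A from WT cells was 1.00 ± 0.06 (SE, adjusted p = 1.9e-19) at 1 hpi and 1.69 ± 0.06 (SE, adjusted p = 1.6e-28) at 18 hpi.

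Lilrb4a, the remaining inhibitory receptor, gave no usable values. Its row held 0 reads in 32 of 36 libraries and 1 read in the others, and it was not in the tables of log2 normalized counts. In the annotation its gene spans chr10:51490956-51496611 (plus strand), and 1846 of its 5227 exonic bases also belong to Gm49339 on the same strand. Other rows named Lilrb4 and Lilr4b were also counted. In the annotation used here, which may not be that of the counts, Lilr4b is a separate gene (chr10:51480632-51486703, plus strand). How the Lilrb4 row relates to the Lilrb4a row was not settled here. Lilrb4 had 3.57 and 2.85 CPM at 0 hpi and 2258 and 2422 at 120 hpi in WT cells, and at 1 hpi 64.6 and 61 in WT, 189 and 182 in R35A and 223 and 234 in R35K cells. Lilr4b at 1 hpi had 128 and 133 CPM in WT, 444 and 435 in R35A and 560.2 and 595 in R35K cells. Both rows rose in each construct at 1 hpi, Lilrb4 by 4.31 ± 0.11 (SE, adjusted p = 1.3e-35) in WT, 6.19 ± 0.10 (SE, adjusted p = 9.7e-46) in R35A and 6.03 ± 0.07 (SE, adjusted p = 2.9e-37) in R35K cells.

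The comparison of R35A with WT cells at the same time asks how far the replacement of the arginine by alanine changes the response. At 0 hpi none of the 9 members differed by edgeR, 0 had an unadjusted p of at most 0.05, DESeq2 called 0, and 0% of all genes were called. R35A cells were higher for 6, 7, 7, 9 and 0 members at the 5 times from 1 to 120 hpi, against 8.51%, 7.95%, 6.2%, 6.9% and 12.4% of all genes called higher. With single libraries left out the count at 6 hpi was 6 to 7, since the call of Trem3 was lost. The 6 at 1 hpi were Trem2 (2.24 ± 0.08, log2 and SE), Pirb (1.67 ± 0.06), Tyrobp (1.49 ± 0.04), Sirpa (1.47 ± 0.04), Cd33 (1.40 ± 0.05) and Cd300lf (1.00 ± 0.06). Trem3 joined them from 3 hpi, and Trem1 and Hcst at 18 hpi, by 1.19 ± 0.10 and 1.15 ± 0.31 (SE). At 120 hpi, where edgeR called 0 members and DESeq2 0, 5 members had an adjusted p of at most 0.05 with a difference under 1.5-fold, Trem2 higher in R35A cells and Trem1, Tyrobp, Hcst and Cd33 lower.

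Set against each construct's own 0 hpi, the change of 6 members was higher in R35A than in WT cells at 1, 3 and 6 hpi and that of 7 at 18 hpi. The one added was Trem1, which had fallen in WT cells and passed no test for a rise in R35A cells. The corresponding shares of all genes were 5.29%, 5.53%, 4.26% and 5.47%. At 120 hpi edgeR called 0 of 9 members (3 had an unadjusted p of at most 0.05, and DESeq2 called 0), with 9.85% of all genes called higher. With adjustment 2 members had a p of at most 0.05, at a difference under 1.5-fold. At 1 hpi the difference between the log2 fold changes was 1.98 ± 0.42 (SE, adjusted p = 1.1e-04) for Trem2, 1.42 ± 0.08 (SE, adjusted p = 8.6e-20) for Sirpa, 1.29 ± 0.16 (SE, adjusted p = 2.6e-08) for Tyrobp, 1.83 ± 0.28 (SE, adjusted p = 5.4e-07) for Pirb and 1.49 ± 0.26 (SE, adjusted p = 5.3e-06) for Cd33. Trem1 had the opposite sign at 1 hpi, -0.44 ± 0.13 (SE, adjusted p = 0.0063), and passed the test at 18 hpi, 1.13 ± 0.14 (SE, adjusted p = 3.0e-09).

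For Cd300lf at each time up to 18 hpi, and for Trem2 at 1, 6 and 18 hpi, the tests against 0 hpi rested on 1 library. The WT libraries at 0 hpi held 18 and 7 reads of Trem2 and 20 and 10 of Cd300lf, and without replicate 1 the differences at 1 hpi were 1.18 (adjusted p = 0.19) for Trem2 and 0.78 (adjusted p = 0.33) for Cd300lf. At 18 hpi they were 1.18 (adjusted p = 0.25) and 1.47 (adjusted p = 0.065). Counts of members called were then 4, 5, 4 and 5 at 1, 3, 6 and 18 hpi. The direct comparison of R35A with WT cells at the same time does not use the libraries of 0 hpi and called Trem2 and Cd300lf at 1 hpi whichever library was left out.

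**Figure D3:**
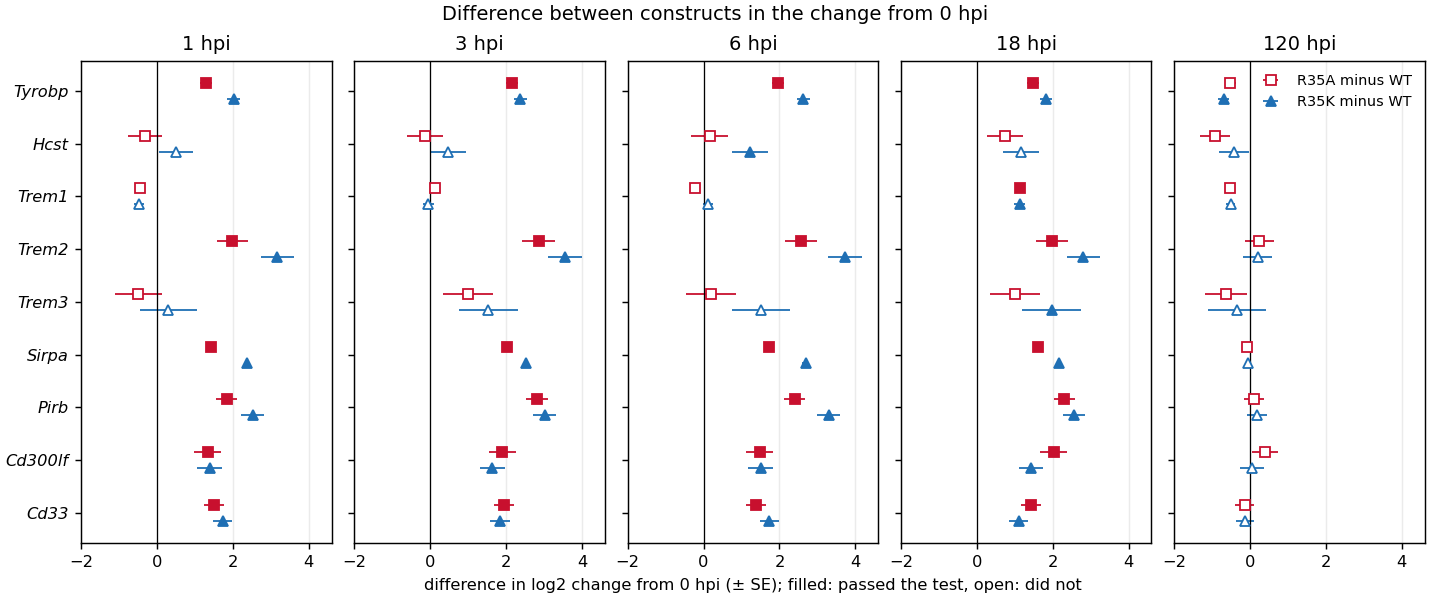
Difference between constructs in the log2 fold change from 0 hpi, as R35A minus WT and R35K minus WT, for each member in a panel per time, with bars of 1 SE and filled symbols for differences that passed the test. From 1 to 18 hpi the symbols of Trem2, Tyrobp, Sirpa, Pirb, Cd300lf and Cd33 lie to the right of 0 for both mutants, and at 120 hpi 1 filled symbol is left, that of Tyrobp for R35K, to the left of 0.

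R35K keeps the positive charge of the residue, and its comparison asks whether a lysine there gives the response that the alanine gives. At 0 hpi edgeR and DESeq2 called 0 members between R35K and WT cells or between R35K and R35A cells, and 0% and 0.00579% of all genes. Without adjustment, 0 and 1 members had a p of at most 0.05. The change from 0 hpi was higher in R35K than in WT cells for 6, 6, 7, 8 and 0 members at the 5 times from 1 hpi on, against 6.84%, 6.14%, 7.66%, 8.91% and 7.51% of all genes. Trem1, among the 8 at 18 hpi, had fallen in WT cells and passed no test for a rise in R35K cells. At 1 hpi the rise exceeded that of WT cells by 3.17 ± 0.44 (SE, adjusted p = 3.4e-08) for Trem2, 2.36 ± 0.08 (SE, adjusted p = 1.6e-30) for Sirpa, 2.02 ± 0.17 (SE, adjusted p = 3.7e-15) for Tyrobp and 2.52 ± 0.29 (SE, adjusted p = 2.9e-10) for Pirb. The calls of Hcst at 6 hpi and Trem3 at 18 hpi were lost under most alternatives. Without WT replicate 1 of 0 hpi, the calls of Trem3, Cd300lf and Cd33 at 18 hpi were lost. The calls of Cd300lf at 1, 3 and 6 hpi were lost without that library too, with differences of 0.83, 1.07 and 0.96. At 120 hpi Tyrobp had risen less in R35K than in WT cells, a difference of -0.70 ± 0.15 (SE, adjusted p = 0.003), when 2.63% of all genes were called lower. Without R35K replicate 2 of 0 hpi this was -0.53 (adjusted p = 0.12). Both mutants were set against the same WT libraries, so these counts and those of R35A are not independent.

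Between the mutants fewer members passed. R35K cells rose more than R35A cells for 3 members at 1 hpi, Trem2 (1.14 ± 0.36 SE, adjusted p = 0.015), Sirpa (0.90 ± 0.08 SE, adjusted p = 9.8e-14) and Tyrobp (0.69 ± 0.15 SE, adjusted p = 0.0021), when 4.15% of all genes were called higher. At 6 hpi the same 3 and Pirb passed, Trem2 by 1.16 ± 0.36 (SE, adjusted p = 0.013), Sirpa by 0.96 ± 0.08 (SE, adjusted p = 1.5e-14), Tyrobp by 0.67 ± 0.15 (SE, adjusted p = 0.0026) and Pirb by 0.89 ± 0.27 (SE, adjusted p = 0.029), against 4.69% of all genes. At 3, 18 and 120 hpi edgeR and DESeq2 called 0 members (1, 2 and 0 had an unadjusted p of at most 0.05), against 2.25%, 2.26% and 0.724% of all genes. With adjustment 1, 1 and 0 members had a p of at most 0.05, at a difference under 1.5-fold. Calls of Trem2, Tyrobp and Pirb in this comparison were lost without single libraries of 0 hpi, for example Tyrobp at 1 hpi without R35A replicate 2 of 0 hpi, 0.48 (adjusted p = 0.22), or Trem2 at 1 hpi without R35K replicate 1 of 0 hpi, 1.08 (adjusted p = 0.071), while those of Sirpa held whichever library was left out. Of the members that did not pass, Cd33 and Cd300lf had differences between the mutants of 0.19 ± 0.24 and 0.01 ± 0.41 at 1 hpi (log2 and SE), with adjusted p of 0.7 and 0.99.

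Steps between neighbouring times were chosen for a test after the levels were seen. In WT cells 3 members fell from 1 to 3 hpi, Trem2 (-0.76 ± 0.12, log2 and SE), Pirb (-0.65 ± 0.09) and Tyrobp (-0.61 ± 0.05), while 1.04% of all genes were called in either direction. Without WT replicate 1 of 1 hpi, Trem2 alone of these was called. From 6 to 18 hpi the same 3 rose in WT cells, Tyrobp by 0.96 ± 0.05 (SE, adjusted p = 2.1e-23), Trem2 by 0.72 ± 0.12 (SE, adjusted p = 1.7e-06) and Pirb by 0.66 ± 0.08 (SE, adjusted p = 1.7e-09), and Trem1 fell by 1.05 (adjusted p = 6.1e-13), against 13.3% of all genes. Without WT replicate 2 of 6 hpi the rise of Trem2 was 0.57, under the fold threshold. R35A cells had 1 call in each of these steps, Trem3 from 1 to 3 hpi (0.83 ± 0.25 SE, adjusted p = 0.031; 0.553% of all genes), lost without any 1 of its 4 libraries, and Cd300lf from 6 to 18 hpi (0.59 ± 0.05 SE, adjusted p = 7.7e-13; 4.28%). R35K cells had 0 calls in the 3 steps from 1 to 18 hpi by edgeR and by DESeq2, against 0.347%, 1.19% and 5.4% of all genes by edgeR. In these steps 7, 6 and 3 members had an unadjusted p of at most 0.05. An adjusted p of at most 0.05, with a change under 1.5-fold, was found for 6, 6 and 3 members. From 3 to 6 hpi 0 members were called in WT or R35A cells by either tool, with 2 and 8 below 0.05 without adjustment. With adjustment 2 and 6 had a p of at most 0.05, at a change under 1.5-fold. In that step 1.04% and 0.177% of all genes were called.

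Genes related to the members were counted in lists, whose counts are to be read against the shares of all genes tested. At 1 hpi 10.7% of all genes were called higher and 9.27% lower in WT cells, 18.3% and 18.9% in R35A cells and 15.5% and 17.4% in R35K cells. At 18 hpi the shares were 23.9% and 23.2% in WT and 21% and 21.6% in R35A cells. By 120 hpi they were 23.1% and 40.2% in WT, 24.2% and 39% in R35A and 25.4% and 38.5% in R35K cells. Of 25 further TREM, CD300, SIRP, PILR and other DAP12- or DAP10-coupled receptor genes, 23 were in the tables and 17 could be tested in WT and R35A cells. At 1 hpi 11 rose and 1 fell in WT cells, and 14 rose and 1 fell in R35A cells, and at 120 hpi 16 had risen and 1 had fallen in both. The list's median log2 fold change at 1 hpi was 3.76 in WT and 5.05 in R35A cells, beside -0.01 and -0.01 over all genes. Sirpb1c and Sirpb1a, activating partners of the SIRP family that couple to DAP12, had no reads in WT cells at 0 hpi. Sirpb1c reached means of 4.78 CPM in WT, 22.2 in R35A and 22 in R35K cells at 1 hpi, and Sirpb1a 2.33, 7.96 and 9.34. The exception was Treml2, a TREM-like receptor of B cells, which fell from 220.3 to 59.7 CPM in WT cells (-1.86 ± 0.04 SE, adjusted p = 3.5e-37) and from 207 to 30 in R35A cells (-2.81 ± 0.05 SE, adjusted p = 4.4e-44).

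Among 30 other inhibitory and PIR-related receptor genes, 19 were in the tables and 18 tested, and their changes went both ways. At 120 hpi 12 had risen and 6 had fallen in WT, R35A and R35K cells alike, and at 1 hpi 6 had fallen in each construct while 9, 9 and 10 had risen. By 120 hpi in WT cells 6 of 18 had fallen, beside 40.2% of all genes, and 12 of 18 had risen, beside 23.1%. Risers included Clec4a3, a C-type lectin receptor, from 0.175 to 4.91 CPM in WT and from 0.154 to 19.1 in R35A cells at 1 hpi (6.91 ± 0.22 SE, adjusted p = 6.2e-32). Cd22, the B cell Siglec, fell from 96.4 to 11.1 CPM in WT cells (-3.09 ± 0.08 SE, adjusted p = 3.0e-36), and Cd72, another B cell inhibitory receptor, by -1.56 ± 0.06 (SE, adjusted p = 7.0e-29), against -2.47 ± 0.06 (SE, adjusted p = 9.2e-37) in R35A cells. Cd22 and Cd72 were named after their values were seen. Pira2 had no reads in WT cells at 0 hpi and means of 16.9, 32.5 and 30.8 CPM at 120 hpi in WT, R35A and R35K cells.

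The 30 genes of DAP12 signalling, kinases, adaptors and lipid enzymes downstream of the ITAM that B cell receptor signalling shares in large part, moved in both directions. In WT cells 6 rising and 6 falling genes at 1 hpi, 5 rising and 13 falling genes at 18 hpi and 18 rising and 6 falling genes at 120 hpi were found, and R35A cells had 8 rising and 8 falling genes, 8 rising and 10 falling genes and 15 rising and 6 falling genes. At 18 hpi in WT cells 5 of 30 rose, beside 23.9% of all genes, and 13 of 30 fell, beside 23.2%. In R35A cells 8 of 30 rose and 10 of 30 fell at that time, beside 21% and 21.6% of all genes. Syk, the kinase recruited by DAP12, was high at the start, 487 ± 11.9 CPM (SD, n = 2) in WT cells at 0 hpi, and fell to 131 ± 3.43 at 18 hpi (-1.90 ± 0.04 SE, adjusted p = 3.6e-42) before standing at 709 ± 11.5 at 120 hpi. Its R35A libraries held 245 ± 2.25 CPM at 18 hpi, a smaller fall than in WT cells by 0.99 ± 0.05 (SE, adjusted p = 1.5e-22). Fgr, a Src-family kinase of myeloid cells, rose from 0.695 to 7.1 CPM in WT (3.35 ± 0.25 SE, adjusted p = 8.3e-17) and from 0.609 to 31.4 in R35A cells at 1 hpi, a difference between the constructs of 2.33 ± 0.48 (SE, adjusted p = 9.4e-05). Fcer1g, the other ITAM adaptor of myeloid cells, rose from 1.57 to 28.1 CPM in WT and from 1.6 to 82.1 in R35A cells at 1 hpi, by 4.18 ± 0.12 (SE, adjusted p = 1.7e-32) and 5.62 ± 0.09 (SE, adjusted p = 3.0e-44).

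The 10 effectors of ITIM receptors were all tested, and 1 rising and 2 falling genes at 1 hpi and 4 rising and 1 falling genes at 120 hpi were found in WT cells, and 2 rising and 5 falling genes and 4 rising and 1 falling genes in R35A cells. The WT counts at 1 hpi lie near the shares of all genes, 10.7% higher and 9.27% lower. Ptpn6, which encodes SHP1, fell in WT cells from 86.9 ± 1.35 CPM (SD, n = 2) at 0 hpi to 39.1 ± 0.0774 at 1 hpi (-1.13 ± 0.05 SE, adjusted p = 4.3e-25) and rose to 309 ± 7.36 by 120 hpi. In R35K cells it held 96.6 ± 0.516 CPM at 1 hpi, a log2 change of 0.09 ± 0.04 (SE, adjusted p = 0.092). The 12 ligands and membrane partners gave 5 rising and 1 falling genes at 1 hpi in WT cells and 7 rising and 2 falling genes in R35A cells, beside 10.7% higher and 9.27% lower of all genes in WT and 18.3% and 18.9% in R35A cells, and 7 rising and 4 falling genes and 7 rising and 3 falling genes at 120 hpi. Ms4a4a, a tetraspan protein linked to TREM2, stood at 3.8 CPM in WT, 52.8 in R35A and 122 in R35K cells at 1 hpi, and the rise of R35A exceeded that of WT cells by 3.51 ± 0.65 (SE, adjusted p = 1.8e-05). Apoe, a lipid carrier that binds TREM2, rose from 20.3 to 319 CPM in R35A cells at 1 hpi, where WT cells held 19 and 28 CPM, a difference between the rises of 3.37 ± 0.09 (SE, adjusted p = 7.2e-34). The lists gave no test of their own and are described by these counts.

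**Figure D4:**
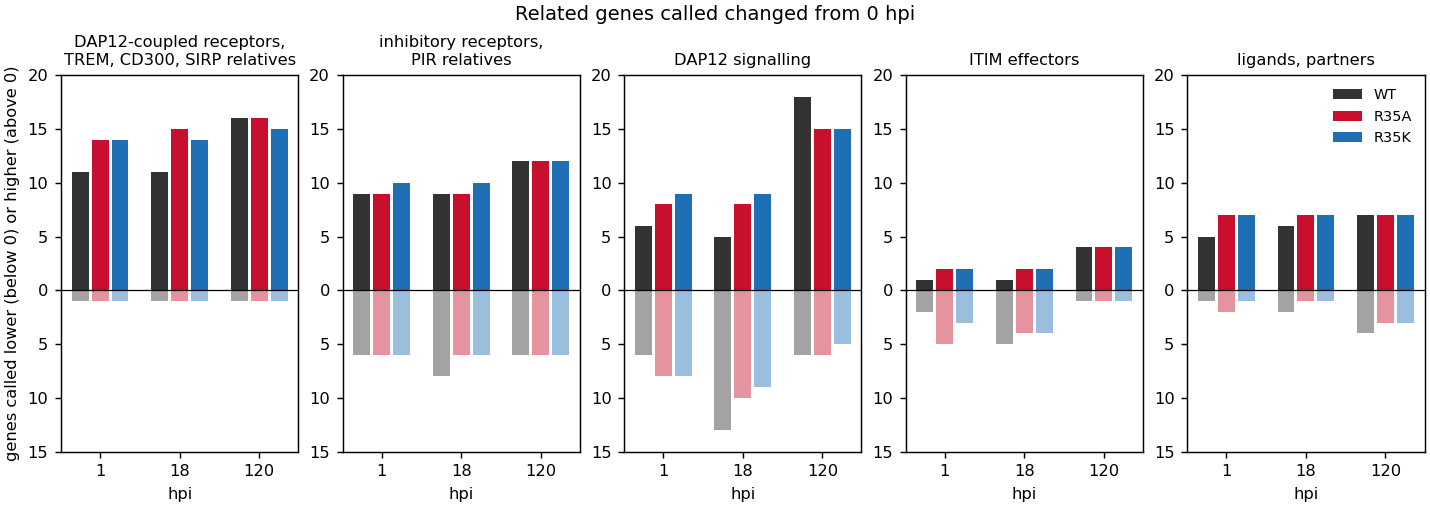
Number of genes of each related list called higher (bars above 0) or lower (paler bars below 0) than at 0 hpi, at 1, 18 and 120 hpi in WT, R35A and R35K cells. The list of DAP12-coupled receptors and their relatives had 11 of 17 genes higher in WT and 14 of 17 in R35A cells at 1 hpi, and the signalling lists have bars on both sides.

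The genes whose levels ran most like each member were found over the 18 group means of log2 CPM among 13896 genes, as a description. All values below are Pearson's r, and the 18 points share the large change from 0 to 120 hpi. The closest to Tyrobp were Tlr13 (0.999) and Fcer1g (0.998), to Trem2 Ms4a6d (0.998), 4930430E12Rik (0.997) and Adgre1 (0.996), to Sirpa C3ar1 (0.998), Samd8 (0.998) and Cd14 (0.997), and to Pirb Ugt1a7c (0.999) and Itgam (0.998). Cd300lf and Cd33 were each other's closest gene, with r = 0.999. The rest had lower values, Trem1 Tm6sf1 (0.987) and Insig1 (0.985), Hcst Atp6ap2 (0.982), and Trem3 Il1b (0.975).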

How the data were processed

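RNA was measured in 36 libraries of induced B cells with a stranded mRNA kit and single-end sequencing. The authors aligned reads with STAR 2.5.0a to mm10 and counted them per gene. They deposited raw counts, and log2 normalized counts made with DESeq2 1.14.1, each in a table for WT and R35A and a table for R35K. The column of strands counted and the annotation release are not given in the sources used here. Counts were used for all tests. The log2 values were recovered from the counts in full, for the deposited genes, and served as an alternative scale for the genes most like each member.

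Counts per gene were tested with edgeR 4.0.16 (R 4.3.3, limma 3.58.1), with TMM scaling, its filter on low counts and the quasi-likelihood F test. The 24 WT and R35A libraries were fitted together (16988 genes), the 12 R35K libraries alone (16434), and all 36 together for comparisons of R35K with the other constructs (17277). A gene was called at a change of at least 1.5-fold and a p of at most 0.05 after Benjamini-Hochberg adjustment. The study's methods give the same fold and a p of 0.05. CPM used TMM factors over the 36 libraries. SE is the log2 fold change divided by the square root of F. Fits were tested on simulated data. The variance between replicates was 1.08 to 2.33 times that of counting noise in the median gene. As a mean over genes this ratio was 16.6 for WT at 6 hpi and 8.88 for R35K at 3 hpi. It was at most 3.68 in the other groups.

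All 10 members were described. From each related list at most 2 genes per comparison were named, those with the largest change among those called and above 1 CPM in a group, with levels in place of a fold where a group had no reads. Cd22, Cd72, Treml2, Syk, Ptpn6 and Klrk1 were named outside that rule. The members, lists and steps between times were chosen with earlier results of these data known. Alternatives were DESeq2 1.42.0, its size factors, no filter or one of 10 counts, unadjusted p, a 2-fold threshold, other libraries in the fit, a replicate block and each library left out. Chromatin data were not analysed here.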

Additional observations from a re-analysis of the deposited data

Results flagged for a closer look

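The results below were listed because the change from 0 hpi differed between 2 constructs by a test of the difference itself (edgeR, at least 1.5-fold, adjusted p of at most 0.05 over all genes). There were 60 such results among the 9 members tested. Values are differences between log2 fold changes, and those of R35A and R35K against WT share the WT libraries.

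Tyrobp had a higher change in R35A than in WT cells, by 1.29, 2.16, 1.95 and 1.49 at 1, 3, 6 and 18 hpi. Tyrobp had a higher change in R35K than in WT cells, by 2.02, 2.37, 2.63 and 1.82 at 1, 3, 6 and 18 hpi, and its difference was -0.70 at 120 hpi. Tyrobp had a higher change in R35K than in R35A cells, by 0.69 and 0.67 at 1 and 6 hpi. Trem2 had a higher change in R35A than in WT cells, by 1.98, 2.85, 2.56 and 1.98 at 1, 3, 6 and 18 hpi. Trem2 had a higher change in R35K than in WT cells, by 3.17, 3.55, 3.73 and 2.81 at 1, 3, 6 and 18 hpi. Trem2 had a higher change in R35K than in R35A cells, by 1.14 and 1.16 at 1 and 6 hpi. Trem1 had a higher change in R35A than in WT cells, by 1.13 at 18 hpi, when it had fallen in WT cells and passed no test for a rise in R35A cells. Trem1 had a higher change in R35K than in WT cells, by 1.13 at 18 hpi, when it had fallen in WT cells and passed no test for a rise in R35K cells. Trem3 had a higher change in R35K than in WT cells, by 1.97 at 18 hpi. Hcst had a higher change in R35K than in WT cells, by 1.22 at 6 hpi. Sirpa had a higher change in R35A than in WT cells, by 1.42, 2.02, 1.73 and 1.62 at 1, 3, 6 and 18 hpi. Sirpa had a higher change in R35K than in WT cells, by 2.36, 2.52, 2.69 and 2.16 at 1, 3, 6 and 18 hpi. Sirpa had a higher change in R35K than in R35A cells, by 0.90 and 0.96 at 1 and 6 hpi. Pirb had a higher change in R35A than in WT cells, by 1.83, 2.81, 2.40 and 2.31 at 1, 3, 6 and 18 hpi. Pirb had a higher change in R35K than in WT cells, by 2.52, 3.01, 3.29 and 2.55 at 1, 3, 6 and 18 hpi. Pirb had a higher change in R35K than in R35A cells, by 0.89 at 6 hpi. Cd300lf had a higher change in R35A than in WT cells, by 1.33, 1.89, 1.48 and 2.02 at 1, 3, 6 and 18 hpi. Cd300lf had a higher change in R35K than in WT cells, by 1.39, 1.63, 1.51 and 1.43 at 1, 3, 6 and 18 hpi. Cd33 had a higher change in R35A than in WT cells, by 1.49, 1.94, 1.38 and 1.43 at 1, 3, 6 and 18 hpi. Cd33 had a higher change in R35K than in WT cells, by 1.73, 1.83, 1.73 and 1.11 at 1, 3, 6 and 18 hpi.

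The differences of Trem2 and Cd300lf from WT, and that of Trem3 for R35K at 18 hpi, rest on few reads at 0 hpi. Without WT replicate 1 of 0 hpi, the R35A difference of Trem2 at 6 hpi was 1.76 (adjusted p = 0.059), the R35K difference of Cd300lf at 1 hpi was 0.83 (adjusted p = 0.31) and that of Trem3 at 18 hpi was 1.29 (adjusted p = 0.47). Without WT replicate 1 of 6 hpi, that of Hcst at 6 hpi was 0.53 (adjusted p = 0.44).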

How the results depend on the processing

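No member result changed direction under any alternative run. Counts of members called moved by more than 1.5 times as follows. With a 2-fold threshold, WT cells had 0 calls from 1 to 3 hpi and 1 from 6 to 18 hpi, R35A cells 0 in both steps, R35K minus WT 0 at 120 hpi and R35K minus R35A 1 at 1 hpi and 1 at 6 hpi. With DESeq2, R35A cells had 0 calls from 1 to 3 hpi and 0 from 6 to 18 hpi, and with its size factors in edgeR 0 from 6 to 18 hpi. With an unadjusted p, R35A minus WT at 120 hpi, R35K against R35A at 0 hpi and R35K minus R35A at 18 hpi each had 1. Leaving out each library in turn gave ranges of 1 to 4 (WT, 1 to 3 hpi, 1 without WT replicate 1 of 1 hpi), 0 to 1 (WT, 3 to 6 hpi, 1 without WT replicate 2 of 6 hpi), 0 to 0 (R35A, 1 to 3 hpi) and 0 to 1 (R35A, 6 to 18 hpi, 0 without R35A replicate 2 of 6 hpi or replicate 1 of 18 hpi). For R35A minus WT at 120 hpi it gave 0 to 1 (1 without WT replicate 1 of 120 hpi or R35A replicate 1 of 0 hpi), for R35K minus WT 5 to 8 at 18 hpi (5 without WT replicate 1 of 0 hpi) and 0 to 1 at 120 hpi (0 without R35K replicate 2 of 0 hpi). For R35K minus R35A it gave 1 to 3 at 1 hpi (1 without R35A replicate 2 of 0 hpi), 0 to 1 at 3 hpi (1 without the same library), 2 to 5 at 6 hpi (2 without R35A replicate 1 or 2 or R35K replicate 1 of 0 hpi) and 0 to 1 at 18 hpi (1 without R35A or R35K replicate 2 of 0 hpi). The causes were not tested.

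With a replicate block, fitted as if equal numbers paired the libraries, no count of members moved by more than 1.5 times, and 2 of 242 calls were lost, Hcst for R35K minus WT at 6 hpi (adjusted p = 0.0503) and Trem3 for R35K minus WT at 18 hpi (adjusted p = 0.0521). Equal numbers showed no pairing common to all groups. Over 153 pairs of groups and 8259 genes, the median correlation of the replicate differences was -0.01, with 27 pairs over 0.1 and 37 under -0.1. Such a median cannot show whether libraries of some groups were paired, or were paired under other numbers. Of 242 calls, DESeq2 kept 235, its size factors 238, no low-count filter 238, a filter of 10 counts 241, other libraries in the fit 239 and an unadjusted p 242. With a library left out, 1147 calls were kept and 61 lost, counted over all libraries. Depth limits mainly Trem3, Hcst, Trem2 and Cd300lf, which held 3 to 26 reads per library at 0 hpi, and also Pirb, with 14 to 28. The R35K minus R35A difference of Pirb at 6 hpi was 0.54 without R35K replicate 2 and 0.74 without R35A replicate 1 of 0 hpi.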
